A study of Mus musculus with 7 samples.

Results

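The ribosome biogenesis factors described here are 49 mouse genes, listed by what their proteins do, among 11633 genes named in at least 1 library. They were chosen with earlier results of these data known, as were the other lists used here. All 49 were assembled in each of the 7 libraries, so each has a value in every condition. The libraries were RNA sequencing of wild type primary B cells of the C57BL/6 strain: anti-IgM and BAFF together, anti-IgM alone or BAFF alone, each at 8 h and at 30 h, and cells at 0 h with no stimulus. Anti-IgM is an antibody that cross-links the B cell antigen receptor, and BAFF is a cytokine of the TNF family that keeps mature B cells alive. The dose, the age of the animals, how the B cells were isolated and how many animals were pooled are not given in the sources used here. Each condition was 1 library, so nothing here has a replicate check and no p-value was computed, and because no library was cultured without a stimulus, time in culture and stimulus cannot be told apart against the 0 h cells.

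Ribosomes are built in the nucleolus. RNA polymerase I transcribes one long precursor RNA, small nucleolar RNA-protein particles (snoRNPs) guide its chemical modification, and large sets of transient factors fold, cut and export the pre-40S and pre-60S particles. Resting lymphocytes make few ribosomes, and the entry into growth after antigen receptor signalling is a textbook setting in which this machinery is turned up. The factors do not remain in the finished ribosome, which sets them apart from the ribosomal proteins.

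Values are FPKM (fragments per kilobase of transcript, scaled to the mapped reads of the library), deposited for transcripts assembled separately in each library and summed here over the transcripts of a gene. FPKM is per length, but a sum over assembled pieces also depends on the assembly, so levels of different genes may be compared only roughly. Depth calculated back from the deposited intervals was between 17.8 and 27.2 M mapped reads per library. As a check of the cell label, 7 of 8 B cell markers were assembled in every library, with summed levels of 3741 to 7982 FPKM in the 6 stimulated libraries and 6402 FPKM in the unstimulated one, while the remaining marker, Cd79a, was not assembled as such in any. Of 8 T cell genes, Cd3e, Cd3d, Cd8b1 and Cd28 were not assembled anywhere. Cd4 had 4.62 FPKM unstimulated and 1.14 with BAFF at 30 h, Cd8a 3.15 unstimulated, and Cd3g 1.62 with anti-IgM at 30 h. A gene that was not assembled may still be expressed, since Cd79a was missing from these B cell libraries too. The summed level of the T cell list was 14.9 to 95.4 FPKM in stimulated libraries and 24.3 FPKM unstimulated. In the stimulated libraries nearly all of it came from Lck, which activated B cells can also express. Of 10 macrophage genes, 6 to 9 were assembled in stimulated libraries with sums of 49.2 to 144 FPKM, against 9 and 310.0 FPKM in the unstimulated library. No neutrophil marker of 5 was assembled in any library. Of 5 erythroid genes, Beta-s, a globin, was at most 45.1 FPKM in stimulated libraries and 218 FPKM in the unstimulated one. The NK cell list summed to 2.27 to 8.15 FPKM in stimulated libraries and 8.20 FPKM unstimulated, and the plasma cell list to 49.5 to 73.1 FPKM in stimulated libraries and 78.9 FPKM unstimulated. The part that RNA of these other cells has in differences from the unstimulated library was not tested. In bulk RNA, fewer cells of a type and less RNA per cell cannot be told apart.

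After 8 h with anti-IgM, alone or with BAFF, nearly the whole set stood higher than in unstimulated cells, and after BAFF alone most members stood slightly higher. The difference used throughout is in log2(FPKM + 1), the first-named library minus the second, which slightly understates changes of low genes. A gene was counted as higher or lower when the difference was at least 1, that is 2-fold, at 1 FPKM or more in either library, and when the intervals of the FPKM did not overlap. With both stimuli at 8 h 44 of 49 members were counted higher and 0 lower, where 12.3% of the 9691 genes compared were counted higher and 8.85% lower. The median difference of the members was 1.73, beside 0.11 for all genes. With anti-IgM alone at 8 h 40 members were higher and 0 lower, where 10.7% of 9827 genes were higher and 10.5% lower, and the median was 1.61 beside 0.05. All 49 members lay above 0 in both of these comparisons. With BAFF alone at 8 h 7 members were higher and 0 lower, where 5.62% of 9882 genes were higher and 4.29% lower. The 7 were Polr1b, Utp20, Heatr1, Wdr12, Ppan, Grwd1 and Nop2. The count was 2 with a pseudocount of 5 (2.44% of all genes higher), with median ratio scaling (4.37%) and with upper quartile scaling (4.29%), so with BAFF it is not above the background under the scalings. The median of the members with BAFF was 0.66, beside 0.12 for all genes, and 47 of the 49 lay above 0, all but Fbl and Ebna1bp2.

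At 30 h the members were still above the unstimulated library but by less. With both stimuli 9 members were counted higher (8.34% of 9868 genes), with anti-IgM 9 (8.45% of 9905) and with BAFF 2 (5.17% of 9953). The share with BAFF is at the background. The counts depend on the processing: 4 to 20 with both stimuli and 5 to 17 with anti-IgM over the settings tried, and 0 to 2 with BAFF. None was counted lower, where 7.76% of all genes were lower with both stimuli, 7.27% with anti-IgM and 4.09% with BAFF. The members' medians were 0.69 with both, 0.69 with anti-IgM and 0.41 with BAFF, and those of all genes were 0.02 with both, 0.06 with anti-IgM and 0.07 with BAFF. Above 0 lay 47 members with both stimuli, 48 with anti-IgM and 44 with BAFF. The median level of the members was 60.7 FPKM with both stimuli, 54.9 with anti-IgM and 30.4 with BAFF at 8 h, 31.0 with both, 32.4 with anti-IgM and 25.1 with BAFF at 30 h, and 20.1 unstimulated, while the median of all genes stayed between 12.8 and 14.8 FPKM. The highest library was that of both stimuli at 8 h for 24 members and that of anti-IgM at 8 h for 22. Between a member's highest and lowest library the ratio ran between 1.92 for Bms1 and 7.46 for Nop16, with a median of 3.54.

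**Figure D1:**
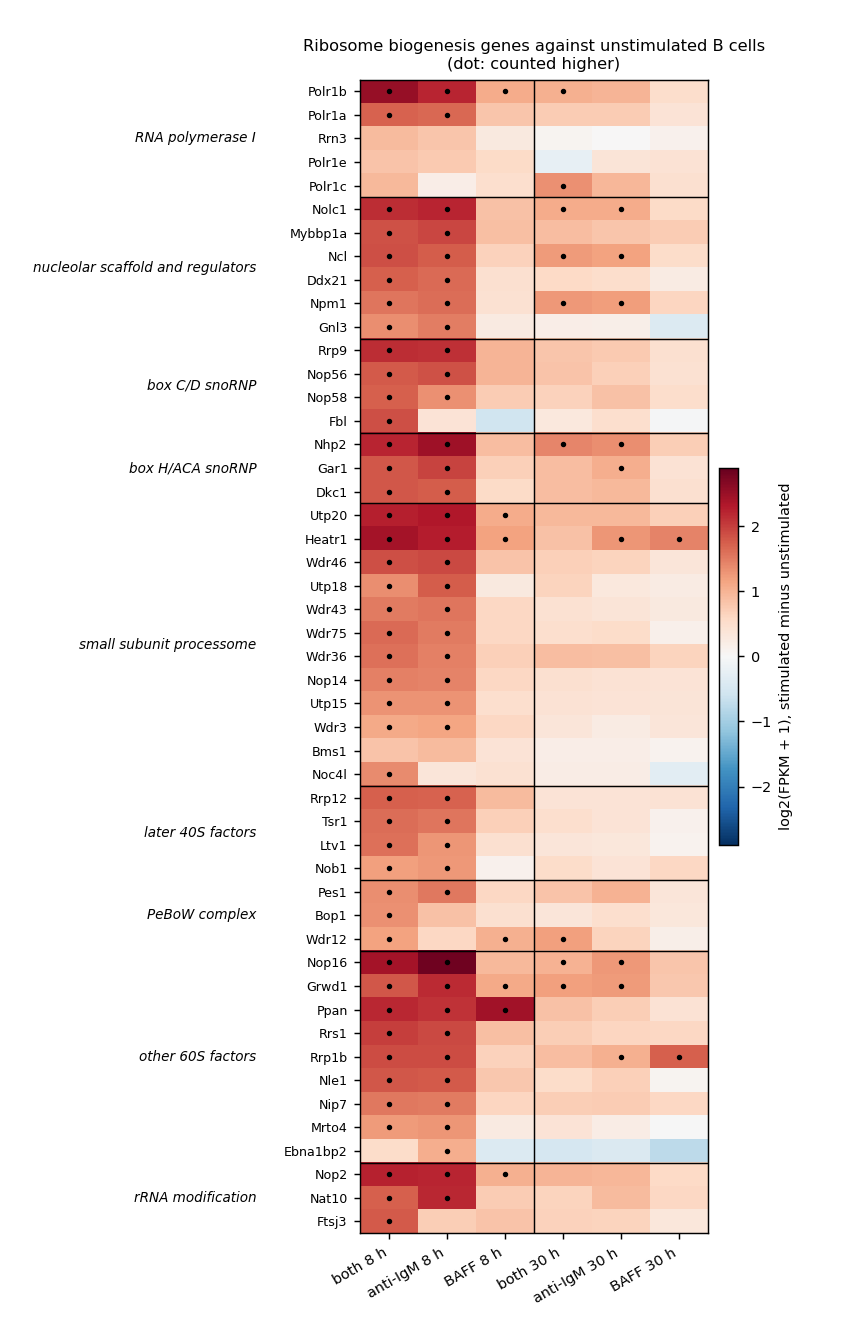
Differences in log2(FPKM + 1) of the 49 ribosome biogenesis genes (rows, by role) in each of the 6 stimulated libraries (columns) against the unstimulated library, red where higher in the stimulated library, blue where lower, with a dot on each gene counted higher. The columns of both stimuli and of anti-IgM at 8 h are red in every row, with 44 and 40 dots.

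**Figure D2:**
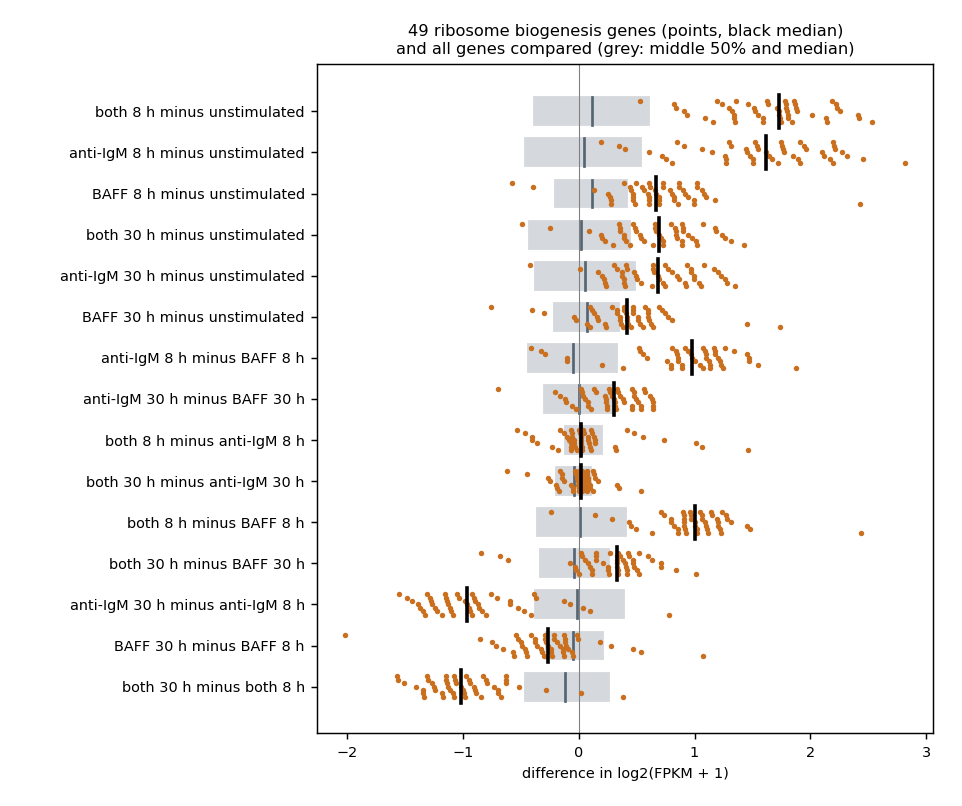
Differences in log2(FPKM + 1) of the 49 members (points, black bar at the median) and the middle 50% and the median of all genes compared (grey) in each of the 15 comparisons. At 8 h the members' medians of 1.73 with both stimuli and 1.61 with anti-IgM lie right of the grey box, and the medians from 8 h to 30 h of both stimuli and of anti-IgM lie left of it.

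Some FPKM values depend on how a gene was pieced together. A library in which a gene was assembled as a longer transcript, or as several pieces, gives another sum for the same reads, and the longest assembled transcript varied by over 1.5 times across the libraries for 15 of the 49 members. A second measure was therefore computed: the reads of all assembled pieces over the exons of the gene, calculated back from FPKM and length, on either strand, scaled by exon length and library as FPKM is, and with 1 added before the logarithm. It comes from the same deposited values and is not independent of them. A counted member is called held where this measure differed by at least 1 the same way. All 44 members counted with both stimuli at 8 h and all 40 with anti-IgM were held, and 6 of 7 with BAFF. At 30 h 7 of 9 were held with both stimuli, 9 of 9 with anti-IgM and 0 of 2 with BAFF. By reads over exons all 49 members were lowest in the unstimulated library. By FPKM 43 were lowest there. Another expressed gene lay within 1000 bases of 27 members. For 14 its span, from first to last exon and on either strand, overlapped that of the member: Polr1c, Ncl, Gnl3, Nop56, Dkc1, Nhp2, Utp18, Wdr3, Heatr1, Tsr1, Bop1, Wdr12, Mrto4 and Nat10. Whether the exons themselves overlap was not computed. Whether the libraries kept the strand is not given in the sources used here, and without it the reads of overlapping genes cannot be told apart.

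**Figure D3:**
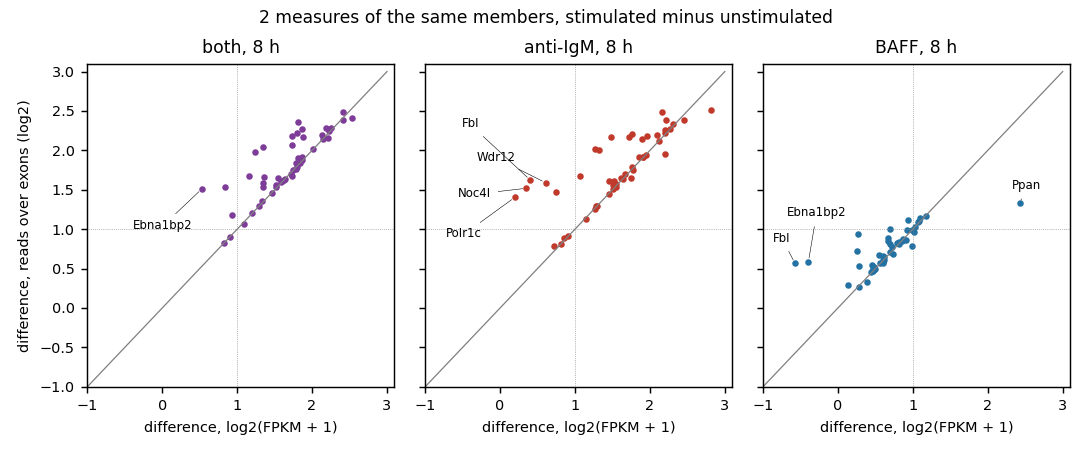
Difference of each member against the unstimulated library by FPKM (horizontal) and by reads over exons (vertical), both on a log2 scale with 1 added, for both stimuli, anti-IgM and BAFF at 8 h. The measures differ for members off the grey line of equality, and the reason for each was not tested. Polr1c, Fbl, Noc4l and Wdr12 lie above the line with anti-IgM, and Ppan lies below it with BAFF.

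RNA polymerase I makes the ribosomal RNA precursor, and 5 members belong to it or recruit it. Of these 5, 2 were counted higher with both stimuli and with anti-IgM at 8 h and 1 with BAFF, and the medians were 0.93 with both, 0.81 with anti-IgM and 0.55 with BAFF. Polr1b, which encodes a large catalytic subunit of the enzyme (mm10 chr2:129100985-129127958, plus strand, 14 exon blocks), had 51.0 FPKM with both stimuli, 40.7 with anti-IgM and 18.0 with BAFF at 8 h, and 17.2 with both, 16.9 with anti-IgM and 11.8 with BAFF at 30 h, against 7.97 unstimulated. Every stimulated value was above the unstimulated one, and the difference was 2.53 ± 0.13 with both stimuli, 2.21 ± 0.12 with anti-IgM and 1.08 ± 0.14 with BAFF at 8 h, where ± is 2 SD of counting error here and throughout. Polr1a, the largest subunit, differed by 1.71 with both and 1.66 with anti-IgM at 8 h. Polr1c, a subunit shared with RNA polymerase III, had 59.2 and 77.3 FPKM at 8 h and 30 h of both stimuli, 35.0 and 60.7 at 8 h and 30 h of anti-IgM, 43.0 and 42.7 at 8 h and 30 h of BAFF, and 30.5 without a stimulus. By FPKM it was highest with both stimuli at 30 h, but its longest transcript varied 2.49-fold and its span overlaps those of Xpo5 and Yipf3. By reads over exons its 8 h differences were 1.17 with both and 1.40 with anti-IgM. Polr1e, another subunit, had 20.3 and 9.04 FPKM at 8 h and 30 h of both stimuli, 19.1 and 14.4 at 8 h and 30 h of anti-IgM, 16.4 and 15.1 at 8 h and 30 h of BAFF, and 10.9 without a stimulus. It was not counted by FPKM in any library, but its longest transcript varied 1.63-fold, and by reads over exons it differed by 1.54 with both and 1.47 with anti-IgM at 8 h. Rrn3, the initiation factor TIF-IA that links growth signals to the polymerase, was not counted in any library. Rrn3 had 29.8 FPKM with both stimuli, 27.7 with anti-IgM and 18.9 with BAFF at 8 h, and 16.4 with both, 15.5 with anti-IgM and 16.8 with BAFF at 30 h, against 15.4 unstimulated. Its assembled length was nearly constant (1.07-fold), so its small difference of 0.81 ± 0.09 with anti-IgM at 8 h did not come with a change of assembly.

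The nucleolar scaffold and regulator genes were among the most abundant members, and all 6 were counted higher with both stimuli and with anti-IgM at 8 h. Their medians were 1.79 with both, 1.70 with anti-IgM and 0.57 with BAFF, where none was counted. Npm1, the histone and ribosome chaperone nucleophosmin, had 1448 FPKM with both stimuli, 1519 with anti-IgM and 673 with BAFF at 8 h, and 1189 with both, 1143 with anti-IgM and 766 with BAFF at 30 h, against 496 unstimulated. It was the most abundant member in every library, and the stimulated values fell into the order both or anti-IgM, then BAFF, at each time. Ncl, nucleolin, which binds nascent ribosomal RNA, had 274 and 177 FPKM at 8 h and 30 h of both stimuli, 254 and 168 at 8 h and 30 h of anti-IgM, 118 and 108 at 8 h and 30 h of BAFF, and 74.4 without a stimulus. It was 1 of the 9 members still counted higher at 30 h of anti-IgM (1.16) and 1 of the 9 at 30 h of both stimuli (1.24). Those sets of 9 are not the same. Nolc1, a snoRNP chaperone (mm10 chr19:46075863-46085531, plus strand, 13 exon blocks), had 97.3 FPKM with both stimuli, 102 with anti-IgM and 39.5 with BAFF at 8 h, and 46.2 with both, 46.5 with anti-IgM and 31.8 with BAFF at 30 h, against 21.4 unstimulated. Its difference was 2.14 ± 0.10 with both, 2.20 ± 0.09 with anti-IgM and 0.86 ± 0.11 with BAFF at 8 h. Gnl3, nucleostemin, had 115 and 51.5 FPKM at 8 h and 30 h of both stimuli, 126 and 50.3 at 8 h and 30 h of anti-IgM, 53.6 and 33.7 at 8 h and 30 h of BAFF, and 44.8 without a stimulus, and with BAFF at 30 h it lay below the unstimulated library by FPKM (-0.40) and above it by reads over exons (0.69). Ddx21, an RNA helicase, and Mybbp1a, a polymerase I partner, differed by 1.64 and 1.94 with anti-IgM at 8 h.

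The snoRNP proteins carry out methylation (box C/D) and pseudouridylation (box H/ACA) of ribosomal RNA. Of the 4 box C/D members, 4 were counted higher with both stimuli, 3 with anti-IgM and 0 with BAFF at 8 h, and of the 3 box H/ACA members 3 with both stimuli, 3 with anti-IgM and 0 with BAFF. Nhp2, a core box H/ACA protein (mm10 chr11:51619773-51623714, plus strand, 4 exon blocks), had 152 FPKM with both stimuli, 178 with anti-IgM and 60.3 with BAFF at 8 h, and 87.0 with both, 82.5 with anti-IgM and 52.8 with BAFF at 30 h, against 31.8 unstimulated. It was counted higher in all 4 libraries with anti-IgM and in neither with BAFF alone. Dkc1, dyskerin, the pseudouridine synthase, had 116 and 61.8 FPKM at 8 h and 30 h of both stimuli, 113 and 63.2 at 8 h and 30 h of anti-IgM, 48.7 and 45.6 at 8 h and 30 h of BAFF, and 32.6 without a stimulus, with a deposited interval in the BAFF library at 30 h that spanned 97.9% of its value either way. Gar1, the third box H/ACA protein listed, had 60.7 FPKM with both stimuli, 68.2 with anti-IgM and 27.8 with BAFF at 8 h, and 32.1 with both, 36.1 with anti-IgM and 22.7 with BAFF at 30 h, against 16.8 unstimulated. It differed by 1.79 with both and 1.96 with anti-IgM at 8 h, with a counting error of 1.09 for each from a wide interval in the unstimulated library. Nop56, a box C/D core protein, had 251 FPKM with both stimuli, 263 with anti-IgM and 145 with BAFF at 8 h, and 129.7 with both, 117 with anti-IgM and 99.1 with BAFF at 30 h, against 72.2 unstimulated. The 3 libraries at 8 h were its 3 highest. Its span overlaps that of Idh3b, a mitochondrial enzyme gene. Rrp9, which binds the U3 snoRNA, had 71.0 FPKM with both stimuli, 69.9 with anti-IgM and 31.49 with BAFF at 8 h, and 27.4 with both, 26.8 with anti-IgM and 21.6 with BAFF at 30 h, against 15.3 unstimulated. It differed by 2.14 ± 0.14 with both, 2.12 ± 0.14 with anti-IgM and 0.99 ± 0.16 with BAFF at 8 h. Nop58, the partner of Nop56, differed by 1.73 with both and 1.32 with anti-IgM.

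Fbl, fibrillarin, the methyltransferase of box C/D snoRNPs, differed between the measures. It had 292 and 98.4 FPKM at 8 h and 30 h of both stimuli, 106 and 113 at 8 h and 30 h of anti-IgM, 53.3 and 77.6 at 8 h and 30 h of BAFF, and 79.8 without a stimulus. Its longest assembled transcript was 1357 bases with both stimuli, 3596 with anti-IgM and 2860 with BAFF at 8 h, and 1275 unstimulated. By reads over exons it stood at 128 with both, 104 with anti-IgM and 49.6 with BAFF at 8 h, and at 33.1 unstimulated, which gives differences of 1.92 with both, 1.63 with anti-IgM and 0.57 with BAFF. The FPKM differences of 0.40 with anti-IgM and -0.57 with BAFF thus go with assemblies more than 2-fold longer than the unstimulated one.

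**Figure D4:**
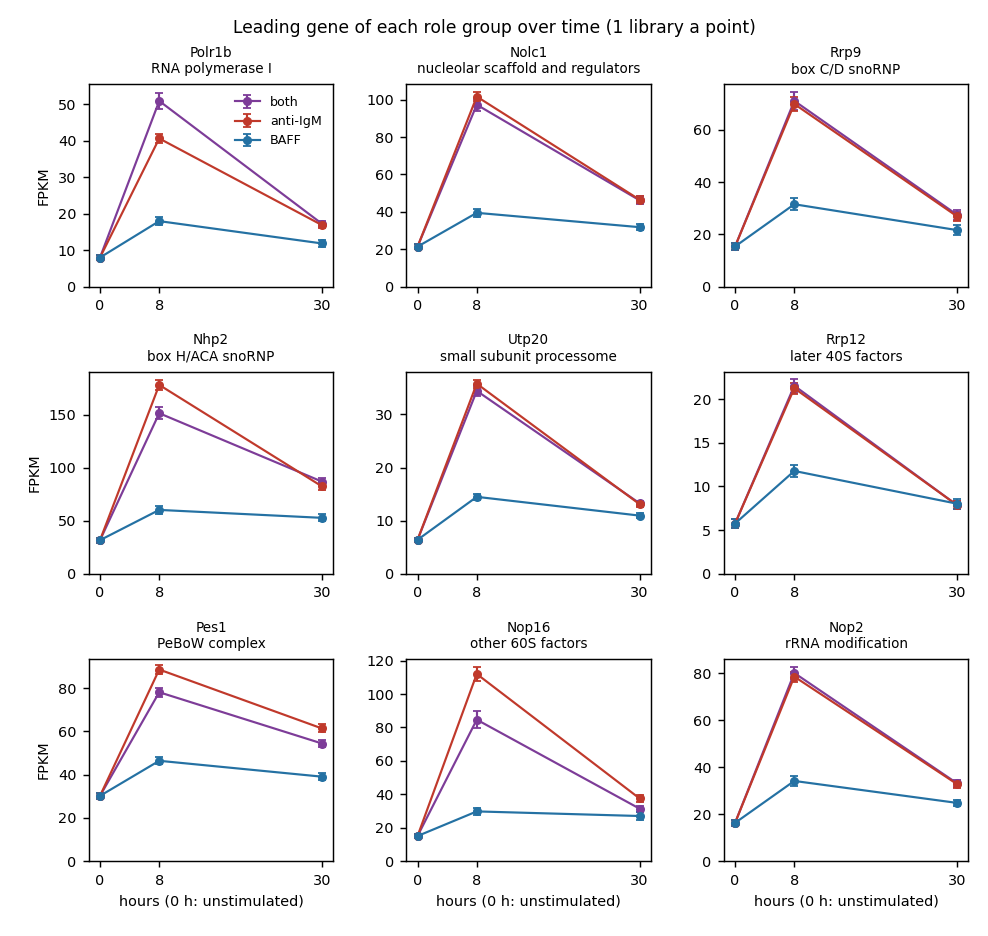
FPKM at 0 h (unstimulated), 8 h and 30 h of both stimuli, anti-IgM and BAFF for the member of each role group with the largest difference at 8 h of anti-IgM, each point 1 library with its FPKM interval. In all 9 panels the values with both stimuli and with anti-IgM peak at 8 h and stand above BAFF there.

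The small subunit processome assembles on the nascent precursor and releases the pre-40S particle, and with 12 members it is the largest group here. At 8 h 11 of the 12 were counted higher with both stimuli, 10 with anti-IgM and 2 with BAFF, with medians of 1.49 with both, 1.48 with anti-IgM and 0.60 with BAFF. Utp20 (mm10 chr10:88746607-88826814, minus strand, 62 exon blocks), a very large scaffold protein, had 34.4 FPKM with both stimuli, 35.8 with anti-IgM and 14.5 with BAFF at 8 h, and 13.3 with both, 13.1 with anti-IgM and 10.96 with BAFF at 30 h, against 6.40 unstimulated. Its difference was 2.26 ± 0.09 with both, 2.31 ± 0.08 with anti-IgM and 1.07 ± 0.10 with BAFF at 8 h. Heatr1, the human and mouse counterpart of yeast Utp10, had 85.1 and 28.0 FPKM at 8 h and 30 h of both stimuli, 77.2 and 38.5 at 8 h and 30 h of anti-IgM, 35.6 and 43.3 at 8 h and 30 h of BAFF, and 15.2 without a stimulus. It was counted higher with BAFF at 30 h, where its longest transcript was 3461 bases, against 6746 unstimulated, and where reads over exons gave only 0.48. Wdr43, a WD-repeat subunit, had 81.7 FPKM with both stimuli, 83.7 with anti-IgM and 43.0 with BAFF at 8 h, and 38.2 with both, 36.4 with anti-IgM and 34.3 with BAFF at 30 h, against 27.9 unstimulated, and its assembled length varied only 1.05-fold. Wdr46, Wdr75, Wdr36, Wdr3, Utp15, Utp18 and Nop14 lay between 1.15 and 1.91 with anti-IgM at 8 h, and all were counted. Utp18, a subunit whose difference between anti-IgM and BAFF at 8 h was among the 3 largest, had 50.9 and 31.0 FPKM at 8 h and 30 h of both stimuli, 67.8 and 24.4 at 8 h and 30 h of anti-IgM, 23.8 and 23.0 at 8 h and 30 h of BAFF, and 19.5 without a stimulus. Bms1, a GTPase of the processome, had 41.4 FPKM with both stimuli, 44.0 with anti-IgM and 30.4 with BAFF at 8 h, and 26.5 with both, 26.6 with anti-IgM and 24.7 with BAFF at 30 h, against 23.0 unstimulated. It was not counted in any library, at 0.82 with both and 0.91 with anti-IgM at 8 h. Noc4l had 76.6 and 34.3 FPKM at 8 h and 30 h of both stimuli, 37.5 and 34.2 at 8 h and 30 h of anti-IgM, 40.3 and 23.6 at 8 h and 30 h of BAFF, and 29.2 without a stimulus. At 8 h it was counted with both stimuli only (1.36), against 0.35 with anti-IgM, and by reads over exons it was at 1.66 with both and 1.52 with anti-IgM.

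The later 40S factors act on the pre-40S particle, and all 4 were counted higher with both stimuli and with anti-IgM at 8 h and none with BAFF. Their medians were 1.61 with both, 1.41 with anti-IgM and 0.58 with BAFF. Tsr1, a GTPase-like factor that blocks early subunit joining, had 137 FPKM with both stimuli, 129.8 with anti-IgM and 71.7 with BAFF at 8 h, and 62.2 with both, 58.1 with anti-IgM and 48.3 with BAFF at 30 h, against 44.0 unstimulated. Its span overlaps that of Srr. Nob1, the endonuclease that cuts out the mature end of the 18S RNA, had 47.4 and 29.4 FPKM at 8 h and 30 h of both stimuli, 49.8 and 26.8 at 8 h and 30 h of anti-IgM, 22.1 and 31.1 at 8 h and 30 h of BAFF, and 20.1 without a stimulus. Only the 2 libraries with anti-IgM at 8 h stood apart from the unstimulated one by the threshold. Rrp12, known in yeast as an export factor (mm10 chr19:41859427-41896206, minus strand, 34 exon blocks), was the least abundant of the 4 and had 21.5 FPKM with both stimuli, 21.2 with anti-IgM and 11.8 with BAFF at 8 h, and 7.86 with both, 7.86 with anti-IgM and 8.03 with BAFF at 30 h, against 5.76 unstimulated. The difference at 8 h was 1.74 ± 0.11 with both, 1.72 ± 0.11 with anti-IgM and 0.92 ± 0.13 with BAFF. However, its longest transcript varied 1.65-fold. By reads over exons it stood at 21.4 with both, 21.2 with anti-IgM and 8.74 with BAFF at 8 h, against 3.92 unstimulated. Ltv1 stood at 1.59 with both and 1.28 with anti-IgM.

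The PeBoW complex, of Pes1, Bop1 and Wdr12, is needed for 60S maturation, and of these 3 genes 3 were counted higher with both stimuli, 1 with anti-IgM and 1 with BAFF at 8 h. Their medians were 1.33 with both, 0.85 with anti-IgM and 0.60 with BAFF. Pes1 (mm10 chr11:3963949-3981439, plus strand, 15 exon blocks) had 78.1 FPKM with both stimuli, 88.6 with anti-IgM and 46.4 with BAFF at 8 h, and 54.4 with both, 61.3 with anti-IgM and 39.0 with BAFF at 30 h, against 30.2 unstimulated. At 8 h it was counted with both stimuli and with anti-IgM. The 30 h difference of 1.00 ± 0.07 with anti-IgM lay just under the threshold before rounding. Bop1 had 64.0 and 32.1 FPKM at 8 h and 30 h of both stimuli, 45.7 and 35.1 at 8 h and 30 h of anti-IgM, 34.8 and 31.7 at 8 h and 30 h of BAFF, and 24.9 without a stimulus, and its span overlaps those of Heatr7a and Hsf1. Wdr12 had 21.4 FPKM with both stimuli, 14.3 with anti-IgM and 19.3 with BAFF at 8 h, and 21.8 with both, 14.6 with anti-IgM and 10.25 with BAFF at 30 h, against 9.02 unstimulated. Its longest transcript varied 2.48-fold and its interval at 30 h of anti-IgM spanned 109% of the value, and by reads over exons it stood at 1.68 with both, 1.59 with anti-IgM and 0.96 with BAFF at 8 h.

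The other 60S factors act on pre-60S particles between the nucleolus and the cytoplasm. Of 9, 8 were counted higher with both stimuli, 9 with anti-IgM and 2 with BAFF at 8 h, with medians of 1.81 with both, 1.89 with anti-IgM and 0.79 with BAFF. Nop16, a factor of early 60S particles (mm10 chr13:54583788-54590086, minus strand, 6 exon blocks), had 84.6 FPKM with both stimuli, 112 with anti-IgM and 29.7 with BAFF at 8 h, and 31.4 with both, 37.5 with anti-IgM and 27.0 with BAFF at 30 h, against 15.02 unstimulated. By FPKM its 2.82 ± 0.14 with anti-IgM was the largest difference of any member in that comparison, and with both stimuli it was 2.42 ± 0.16. Its longest transcript at 8 h was 1768 bases with both, 1212 with anti-IgM and 1710 with BAFF, against 1472 unstimulated. By reads over exons it stood at 63.3 with both, 64.2 with anti-IgM and 23.9 with BAFF at 8 h, against 10.5 unstimulated. Grwd1, a histone-binding factor, had 36.7 and 23.4 FPKM at 8 h and 30 h of both stimuli, 47.4 and 24.3 at 8 h and 30 h of anti-IgM, 22.0 and 17.4 at 8 h and 30 h of BAFF, and 9.78 without a stimulus, and was counted in every stimulated library but BAFF at 30 h. Ppan, a Brix-domain protein, had 125 FPKM with both stimuli, 118 with anti-IgM and 148 with BAFF at 8 h, and 48.9 with both, 44.9 with anti-IgM and 35.9 with BAFF at 30 h, against 26.8 unstimulated. With BAFF at 8 h it was assembled as 3 transcripts, against 1 with both and 1 with anti-IgM, and by reads over exons it was 119 with both, 112 with anti-IgM and 61.0 with BAFF, against 23.7 unstimulated. Mrto4, a relative of ribosomal stalk protein P0, had 67.7 and 37.3 FPKM at 8 h and 30 h of both stimuli, 69.5 and 33.1 at 8 h and 30 h of anti-IgM, 34.1 and 27.7 at 8 h and 30 h of BAFF, and 28.2 without a stimulus. The 2 libraries with anti-IgM at 8 h were again the highest, and the unstimulated interval was wide, at 48.6% of the value. Rrp1b had 26.3 FPKM with both stimuli, 26.6 with anti-IgM and 10.8 with BAFF at 8 h, and 12.8 with both, 14.2 with anti-IgM and 23.7 with BAFF at 30 h, against 6.41 unstimulated. In the BAFF library at 30 h it was assembled as 4 transcripts, and there the exon measure stood at 6.44, against 3.75 unstimulated. Ebna1bp2 had 50.1 and 24.3 FPKM at 8 h and 30 h of both stimuli, 73.1 and 25.5 at 8 h and 30 h of anti-IgM, 26.0 and 19.999 at 8 h and 30 h of BAFF, and 34.5 without a stimulus, below its unstimulated FPKM with BAFF at 8 h and in all 3 libraries at 30 h. Its exon measure was above the unstimulated one throughout (1.51 with both, 1.67 with anti-IgM and 0.59 with BAFF at 8 h). Rrs1, Nle1 and Nip7 differed by 1.91, 1.77 and 1.503 with anti-IgM at 8 h.

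Of the 3 ribosomal RNA modification enzymes, 3 were counted higher with both stimuli, 2 with anti-IgM and 1 with BAFF at 8 h. Nop2, a cytosine methyltransferase (mm10 chr6:125131883-125144781, plus strand, 17 exon blocks), had 80.0 FPKM with both stimuli, 78.5 with anti-IgM and 34.1 with BAFF at 8 h, and 33.1 with both, 32.7 with anti-IgM and 24.8 with BAFF at 30 h, against 16.3 unstimulated. The difference was 2.23 ± 0.11 with both, 2.20 ± 0.10 with anti-IgM and 1.02 ± 0.13 with BAFF at 8 h, and its assembled length varied 1.08-fold. Nat10, an RNA acetyltransferase, differed by 1.73 with both and 2.20 with anti-IgM at 8 h. Ftsj3 had 105 and 48.1 FPKM at 8 h and 30 h of both stimuli, 49.8 and 47.3 at 8 h and 30 h of anti-IgM, 53.5 and 37.8 at 8 h and 30 h of BAFF, and 29.9 without a stimulus. It was counted with both stimuli only, its longest transcript varied 2.28-fold, and by reads over exons anti-IgM gave 0.79.

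Set against each other, anti-IgM exceeded BAFF at 8 h for most members. Counted higher with anti-IgM than with BAFF were 24 members and lower 0, where 4.89% of 9921 genes were higher and 8.41% lower, and the median difference was 0.98, beside -0.05 for all genes. Of the 49 members 44 lay above 0, and 23 of the 24 were held, Nob1 being the exception. By FPKM the largest differences were those of Nop16 (1.88), Nhp2 (1.55) and Utp18 (1.47). Reads over exons of Nop16 were 64.2 with anti-IgM and 23.9 with BAFF. The 5 members below 0 were Polr1c, Noc4l, Wdr12, Ppan and Ftsj3, and by reads over exons 48 of 49 lay above 0. At 30 h no member was counted either way (3.99% of 10009 genes higher, 4.68% lower), with a median of 0.30 beside 0.00. Marker lists also differed between these libraries. B cell markers had a median of -0.99 at 8 h (7 of 7 below 0, 3 counted lower) and -0.60 at 30 h (7 of 7 below 0, 0 counted), macrophage markers -0.06 at 8 h and -0.50 at 30 h, and the DNA replication and mitosis list -0.11 at 8 h and 0.84 at 30 h. Their part in the members' differences was not tested.

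Adding BAFF to anti-IgM left the members close to their anti-IgM values. With both stimuli against anti-IgM at 8 h 3 members were counted higher and 0 lower, where 4.37% of 9904 genes were higher and 1.86% lower. The median was 0.02 for the members and 0.02 for all genes. The 3 were Fbl, Noc4l and Ftsj3, and none was held. At 30 h no member was counted (2.12% of 10093 genes higher, 3.27% lower), with a median of 0.02. Adding anti-IgM to BAFF gave 25 members higher and 0 lower at 8 h (5.64% of 9811 genes higher, 6.77% lower), with a median of 1.00 and 23 held. At 30 h it gave 1 higher, Wdr12, not held, where 3% of 9974 genes were higher and 5.07% lower, with a median of 0.33. These comparisons share libraries with those above. Against the larger of the single stimuli at 8 h, the value with both stimuli was above both single values for 26 members and between them for 23, and within 0.5 on the log2 scale of the larger one for 45. The same counts over all genes were not computed, so these are not shown to be particular to the members.

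**Figure D5:**
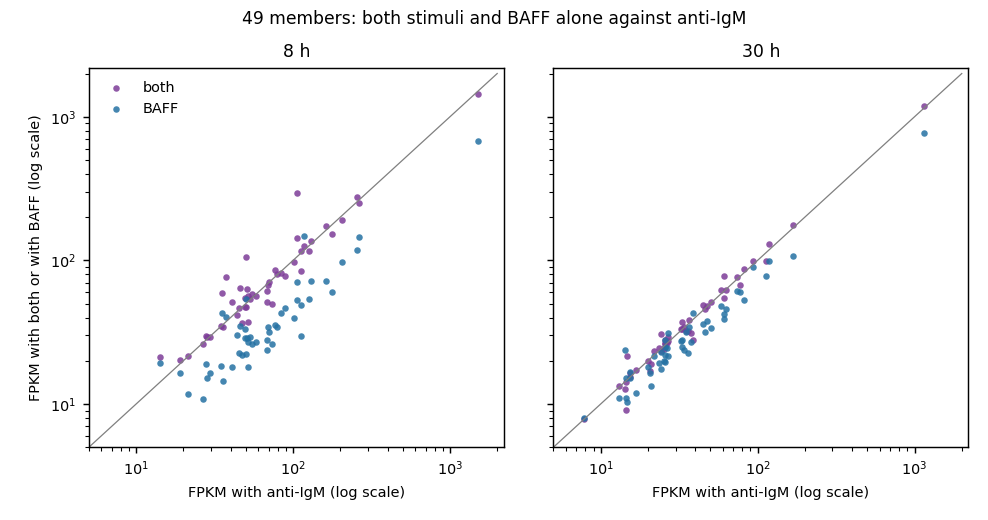
FPKM of the 49 members with both stimuli and with BAFF (vertical) against anti-IgM (horizontal) at 8 h and 30 h, on log axes with the line of equality. At 8 h the values of both stimuli lie along the line, 45 of 49 within 0.5 on the log2 scale of the larger single stimulus, and 44 of 49 BAFF values lie below it. The share of all genes within 0.5 was not computed.

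From 8 h to 30 h the members declined with anti-IgM, alone or with BAFF. With both stimuli 25 were counted lower at 30 h than at 8 h and 0 higher, where 6.95% of 9774 genes were lower and 5.6% higher, and 21 of the 25 were held. The median was -1.01, beside -0.12 for all genes. With anti-IgM alone 23 were lower and 0 higher (5.36% of 9960 genes lower, 7.99% higher), all 23 held, with a median of -0.96 beside -0.02. With BAFF 1 was lower, Ppan, and 1 higher, Rrp1b, neither held (4.18% of 9939 genes lower, 3.64% higher), with a median of -0.27 beside -0.05. Nop16 differed by -1.55 with anti-IgM, with 37.5 FPKM at 30 h against 112 at 8 h. Its reads over exons were 28.3 at 30 h against 64.2 at 8 h. Npm1 differed by -0.41 and Ncl by -0.59, both short of the threshold. Over all 49 members, the 30 h value was below the 8 h value for 47 with both stimuli, 46 with anti-IgM and 44 with BAFF. Markers of cell types moved upward over the same interval. For macrophage markers the median was 0.94 with both (3 of 6 counted higher), 1.01 with anti-IgM (3 of 6) and 1.42 with BAFF (5 of 7), and for B cell markers 0.82 with both (3 of 7), 0.93 with anti-IgM (3 of 7) and 0.42 with BAFF (0 of 7). Their part in the members' decline was not tested.

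Genes of cell division had another time course. All 14 genes of a DNA replication and mitosis list were counted higher at 30 h of anti-IgM than unstimulated, and 13 of 14 with both stimuli and with BAFF, with medians of 2.45 with both, 2.498 with anti-IgM and 1.501 with BAFF. At 8 h the medians of that list were -0.07 with both, -0.18 with anti-IgM and -0.04 with BAFF, but its genes went both ways. Above 0 lay 6 of the 14 with both, 6 with anti-IgM and 7 with BAFF. With anti-IgM 1 was counted higher and 3 lower, beside 10.7% and 10.5% of all genes. Pcna had 171 FPKM with anti-IgM at 8 h against 78.2 unstimulated. Lower there were Mki67 (2.22 against 5.60), Rrm2 (2.82 against 7.29) and Ccnb1 (2.08 against 5.34).

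Ribosome biogenesis genes outside the 49 were also counted higher more often than all genes at 8 h of anti-IgM, alone or with BAFF. A list of 96 further symbols, some of them alternative names of the same gene, had 89 compared in each library pair. Like the 49, this list was chosen with earlier results of these data known, so it is not an independent check. Higher against unstimulated at 8 h were 40 with both stimuli (44.9%, beside 12.3% of all genes) and 37 with anti-IgM (41.6%, beside 10.7%). With BAFF 7 were higher (7.87%, beside 5.62% of all genes), a share near the background. Only 1 was lower, Krr1 with BAFF, where 4.29% of all genes were lower. The medians of the list were 0.92 with both, 0.88 with anti-IgM and 0.46 with BAFF. Among those listed by size of difference with anti-IgM at 8 h, Rpf2, a 60S factor, had 21.4 FPKM with both stimuli and 64.0 with anti-IgM at 8 h, against 10.99 unstimulated. That is a difference of 2.44 with anti-IgM, where reads over exons gave 1.05. Pno1, a 40S factor, had 71.7 FPKM with both stimuli, 72.8 with anti-IgM and 29.9 with BAFF at 8 h, and 30.1 with both, 32.5 with anti-IgM and 26.2 with BAFF at 30 h, against 16.4 unstimulated. Tbl3, a processome subunit, had 56.4 FPKM with anti-IgM at 8 h against 13.04 unstimulated, Cirh1a, another, 55.1 with anti-IgM against 13.5 unstimulated, and Rrp15 74.0 with anti-IgM against 18.5 unstimulated. The lowest of the list, Ddx52, Sbds, Krr1, Exosc8 and Taf1b, lay between -0.84 for Ddx52 and -0.07 for Taf1b with anti-IgM at 8 h, none of them counted in that comparison. By reads over exons all 5 lay above 0 there, between 0.05 for Taf1b and 0.78 for Krr1.

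The ribosomal proteins themselves are parts of the finished ribosome. Of the cytosolic ribosomal protein genes compared at 8 h, 4 of 76 were higher and 5 lower with both stimuli, 1 of 74 was higher and 8 lower with anti-IgM, and 5 of 76 were higher and 4 lower with BAFF. The share lower with anti-IgM, 10.8%, is close to the 10.5% of all genes. The medians were 0.01 with both, -0.07 with anti-IgM and -0.11 with BAFF. At 30 h their medians were 0.49 with both, 0.37 with anti-IgM and 0.17 with BAFF. Mitochondrial ribosomal protein genes had medians at 8 h of 0.64 with both, 0.58 with anti-IgM and 0.31 with BAFF. Of 72 compared, 22 were higher with both (30.6%, beside 12.3% of all genes) and 18 with anti-IgM (25%, beside 10.7%). With BAFF 1 was higher (1.39%, beside 5.62%). Lower were 1 with both (1.39%, beside 8.85%), 4 with anti-IgM (5.56%, beside 10.5%) and 1 with BAFF (1.39%, beside 4.29%). At 30 h their medians were 0.56 with both, 0.57 with anti-IgM and 0.39 with BAFF.

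Myc encodes the textbook activator of many of these genes. It had 264 FPKM with both stimuli, 263 with anti-IgM and 64.7 with BAFF at 8 h, and 59.9 with both, 61.2 with anti-IgM and 29.8 with BAFF at 30 h, against 143 unstimulated. At 8 h the libraries with both stimuli and with anti-IgM stood above the unstimulated one, each by 0.88, less than the threshold, and that with BAFF was counted lower, at -1.13. At 30 h all 3 stimulated libraries were counted lower for Myc, at -1.24 with both, -1.21 with anti-IgM and -2.22 with BAFF, while most members stood above their own unstimulated values.

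MYC and its partner MAX are known to bind the E-box CACGTG, so the reference promoters of the members were searched for it. The motif reads the same on both strands, so one search covers both. RefSeq promoters of GRCm38.p6, the assembly also called mm10, were at hand for 43 of the 49 members, as 250 bases before the start and 50 after it. Of these, 12 hold the motif (27.9%), beside 17.9% of 78 further ribosome biogenesis genes with an entry, 8.91% of 17492 protein-coding genes and 12.6% of the 7123 with at least 5 FPKM in a library. In the 250 bases before the start alone the shares were 9.30% of members, 8.97% of the further ribosome biogenesis genes, 7.61% of protein-coding genes and 10.6% of those with at least 5 FPKM in a library. The members thus do not exceed the expressed genes there, and most of the members' matches lie in the first 50 bases of the transcript. The median difference with anti-IgM at 8 h was 1.76 for the 12 members with a match and 1.503 for the 31 without, with ranges that overlap. A match is a string of letters and not a measured binding site.

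The matches are shown with up to 12 bases either side, 5′ to 3′ on the strand of the gene and with the motif in capitals, because they let the surrounding bases be compared between members. Positions in parentheses are the motif's first base counted from the transcription start, where the first transcribed base is 1 and negative numbers lie before it.
Nop2 (chr6:125131811-125131840, plus strand, -60): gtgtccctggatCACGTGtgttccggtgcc
Grwd1 (chr7:45830740-45830767, minus strand, 35): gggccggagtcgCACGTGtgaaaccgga
Ltv1 (chr10:13193092-13193121, minus strand, 29): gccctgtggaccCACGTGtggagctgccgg
Utp20 (chr10:88826765-88826789, minus strand, 38): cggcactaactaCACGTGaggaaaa
Pes1 (chr11:3963965-3963994, plus strand, 3): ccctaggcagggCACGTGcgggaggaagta
Mybbp1a (chr11:72441355-72441376, plus strand, 41): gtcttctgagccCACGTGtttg
Tsr1 (chr11:74898092-74898121, plus strand, 25): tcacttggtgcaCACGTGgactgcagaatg
Nle1 (chr11:82908355-82908384, minus strand, 24): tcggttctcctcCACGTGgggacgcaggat
Utp18 (chr11:93885769-93885798, minus strand, -20): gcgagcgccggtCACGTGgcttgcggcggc
Rrn3 (chr16:13780472-13780501, plus strand, -215): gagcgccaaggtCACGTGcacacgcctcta
Rrn3 (chr16:13780639-13780668, plus strand, -48): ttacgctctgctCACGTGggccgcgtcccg
Wdr46 (chr17:33940699-33940728, plus strand, -12): aagggagtttcgCACGTGgatcgttgttcg
Wdr43 (chr17:71616220-71616249, plus strand, 18): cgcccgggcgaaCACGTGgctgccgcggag
The 250 bases before the start are given for 3 members, chosen by their number of matches and their differences, so that no relation can be read from them: Nop2 with 1 match and a difference of 2.20 with anti-IgM at 8 h, Nolc1 with no match and the same 2.20, and Rrn3 with 2 matches and 0.81. The sequences cover chr6:125131633-125131882, chr19:46075597-46075846 and chr16:13780449-13780698 of GRCm38.p6, all on the plus strand, with CACGTG in capitals.
Nop2: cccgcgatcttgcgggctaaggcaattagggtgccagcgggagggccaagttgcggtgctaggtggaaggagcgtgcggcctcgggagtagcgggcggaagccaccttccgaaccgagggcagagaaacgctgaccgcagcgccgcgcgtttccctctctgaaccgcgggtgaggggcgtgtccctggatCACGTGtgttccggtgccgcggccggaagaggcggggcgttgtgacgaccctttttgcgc
Nolc1: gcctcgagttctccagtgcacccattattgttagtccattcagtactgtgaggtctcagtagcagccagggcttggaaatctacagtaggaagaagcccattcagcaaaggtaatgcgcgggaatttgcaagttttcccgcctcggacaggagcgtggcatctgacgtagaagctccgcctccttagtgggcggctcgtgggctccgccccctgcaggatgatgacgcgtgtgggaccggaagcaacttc
Rrn3: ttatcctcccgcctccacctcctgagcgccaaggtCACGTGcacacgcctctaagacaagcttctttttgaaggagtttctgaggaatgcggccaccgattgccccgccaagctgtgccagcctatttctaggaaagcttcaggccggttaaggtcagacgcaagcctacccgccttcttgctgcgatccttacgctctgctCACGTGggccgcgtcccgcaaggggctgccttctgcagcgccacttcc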

How the data were processed

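RNA of 7 B cell libraries was reverse transcribed with poly-dT primers and made into TruSeq libraries, per the labels' protocols. The submitters' processing notes name CASAVA 1.8.2, TopHat2 2.0.5, Bowtie2 2.0.0.7, Cufflinks 2.0.2 and build mm10. The authors deposited 1 file of assembled transcripts per library, with FPKM and its interval as attributes, and 1 merged annotation, from which transcripts were named by exon overlap on the same strand. Here FPKM was summed per gene over transcripts of at least 300 bases, since shorter pieces held 66.6 to 74.4% of the summed FPKM. The SD is the deposited half-interval divided by 2 and covers counting error only. Differences are in log2(FPKM + 1). The 49 members and all lists were chosen with earlier results of these data known. Values in every library are given for the 2 highest members by median FPKM and the member with the largest anti-IgM difference at 8 h in each role group, and for the 3 largest and 3 smallest differences in each comparison with the unstimulated library and of anti-IgM with BAFF. The counting rule was tried on simulated libraries with counting error only, which hold no spread between animals and no change of assembly. With 1 library a group, the test was a fixed rule of size. Alternatives are scaling, pseudocount, filter, transcript choice and the exon measure. Calculations ran in Python 3.11.15 with pandas 2.3.3 over numpy 2.4.6, and plots were drawn by matplotlib 3.10.9. Promoter sequences are from RefSeq.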

Additional observations from a re-analysis of the deposited data

How the results depend on the processing

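Under 11 other settings every members' median kept its sign except that of both stimuli against anti-IgM at 8 h, 0.02, which was -0.02 under each scaling and -0.03 for the most abundant transcript. No member was counted lower at 8 h of both stimuli or of anti-IgM than unstimulated under any of them. The 2 scalings moved the all-gene median with anti-IgM at 8 h to -0.08 (median ratio) and -0.11 (upper quartile), beside 0.05. With anti-IgM at 8 h the members' median was 1.43 (pseudocount 5), 1.47 (median ratio) and 1.43 (upper quartile), and with both stimuli at 8 h 1.46, 1.56 and 1.51 under those settings. Counts of members follow with the share of all genes counted the same way. With BAFF at 8 h 2 members were higher under each of the 3 (2.44%, 4.37% and 4.29% for pseudocount 5, median ratio and upper quartile). At 30 h of both stimuli 4 (pseudocount 5, 4.93%), 20 (most abundant transcript, 8.48%) and 14 (exons, 8.03%) were higher. At 30 h of anti-IgM 5 (pseudocount 5, 5.05%) and 17 (most abundant transcript, 9.24%) were higher, with medians of 0.56 and 0.88. At 30 h of BAFF 1 (most abundant transcript, 4.43%) and 0 (exons, 3.33%) were higher. With both against anti-IgM at 8 h 0 were higher (exons, 0.758%), and with both against BAFF at 30 h 0 (pseudocount 5, 1.38%; most abundant transcript, 2.33%; exons, 2.05%). For 30 h against 8 h of both stimuli the median was -0.88 (median ratio) and -0.85 (upper quartile), with 14 lower (upper quartile, 4.72%). For BAFF 0 were higher (pseudocount 5, 1.71%; most abundant transcript, 2.96%; exons, 2.43%) and 0 lower (exons, 1.54%), and Rrp1b reversed to -0.42 (most abundant transcript) and -0.24 (exons), beside 1.07. Leaving out members of unstable assembled length, chosen after seeing the data, left 34. With them 0 were higher at 30 h of BAFF, 1 with both against anti-IgM at 8 h, 0 with both against BAFF at 30 h and 0 from 8 h to 30 h of BAFF, and the anti-IgM median for 30 h against 8 h was -1.08. The cause was not tested. No paired analysis was possible because each condition is 1 library, and for the same reason no replicate could be left out.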
